A study of Homo sapiens with 8 samples.

Results

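The 9 genes described here make, hold and remove retinoic acid, namely CYP26A1, CYP26B1, DHRS3, RDH10, ALDH1A2, ALDH1A3, CRABP1, CRABP2 and STRA6. They were chosen by name and found through their GENCODE symbols among the 60659 genes of the count table, and all 9 had enough reads to be tested in every comparison.

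Retinol enters or leaves cells through the membrane receptor STRA6. RDH10 oxidizes it to retinal, DHRS3 reduces retinal back to retinol, and the retinal dehydrogenases ALDH1A2 and ALDH1A3 oxidize retinal to retinoic acid, the ligand of the nuclear receptors RARA, RARB and RARG. The binding proteins CRABP1 and CRABP2 carry retinoic acid inside the cell, and the cytochrome P450 enzymes CYP26A1 and CYP26B1 hydroxylate it for removal. CYP26A1, CYP26B1, DHRS3, CRABP2 and STRA6 are known to be induced by retinoic acid in many cell types. Through CYP26A1, CYP26B1 and DHRS3 the pathway can limit its own ligand.

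The 8 libraries came from rRNA-depleted RNA of SK-N-SH, a human neuroblastoma line, in 4 groups, with 2 biological replicates per group according to the labels. Every group was given ATRA (all-trans retinoic acid, 10 µM) for 24 h, and no group without ATRA was analysed here. In the first experiment, parental cells with Dox (doxycycline) were set against cells expressing FLAG-tagged ZMYND8, also with Dox. In the second, control KD cells were set against cells with ZMYND8 knockdown, and the labels name no Dox for either. ZMYND8 is a chromatin reader that binds modified histones. The FLAG-ZMYND8 cells came from lentiviral transduction of a Dox-inducible vector and selection with G418, whereas their control was labelled parental, so vector, selection and ZMYND8 cannot be told apart. The methods describe a lentiviral shRNA knockdown without naming SK-N-SH for it, so how the knockdown of these libraries was made was not given in the sources used here.

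Library totals ranged from 38316523 to 56256979 counts. Counts of ZMYND8 itself were 3089 and 3612 in parental cells and 220691 and 182849 with overexpression, and 3128 and 3374 in KD control cells and 1641 and 1640 with knockdown, a log2 change of -0.94 ± 0.0556 (SE). Mitochondrial genes took 0.110% to 0.168% of the counts in the overexpression experiment and 2.92% to 3.41% in the knockdown experiment. Markers of the adrenergic state of neuroblastoma cells, such as GATA3 and HAND2, summed to between 305 and 307 CPM in parental cells, 689 and 722 with overexpression, 531 and 548 in KD control cells and 426 and 468 with knockdown. The mesenchymal markers, such as FN1 and CD44, summed to between 6808 and 6915, 2764 and 2981, 4598 and 4628, and 5006 and 5284 in the same order. That list was mixed. With overexpression 7 of 8 were lower by adjusted p and TWIST1 was called higher (log2 1.31), and with knockdown 3 were higher and 2 lower, PRRX1 (-0.98) and SNAI2 (-0.41). Markers of 5 other cell classes summed to at most 3.48 CPM in any library. The share that these marker shifts have in the results below was not tested, and in bulk RNA fewer cells of a type and less RNA per cell cannot be told apart.

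Levels below are in CPM, counts scaled to a common normalized library size. A gene was called when edgeR's quasi-likelihood test gave an adjusted p below 0.05, the fold change reached log2 1 in either direction and the mean normalized count exceeded 20. Errors of fold changes are standard errors, and every p-value rests on 2 libraries per group.

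Upon ZMYND8 overexpression, CYP26A1, CRABP1 and CYP26B1 were called higher and RDH10 was called lower. These 4 of 9 genes compare with 18.6% of all genes tested that were called in either direction, 11.8% higher and 6.84% lower. By adjusted p alone all 9 passed, 5 higher and 4 lower, where 60.8% of all genes passed, 31.7% higher and 29.1% lower. The median log2 fold change of the 9 genes was 0.44, and that of all genes tested was 0.03. Upon ZMYND8 knockdown 1 of the 9, RDH10, was called, lower, where 1.96% of all genes tested were called, 1.36% higher and 0.596% lower. By adjusted p alone 4 of 9 passed there, 1 higher and 3 lower, where 24.3% of all genes passed, 13.4% higher and 10.8% lower. The median of the 9 was -0.047 there, and that of all genes tested was -0.01. RDH10 was thus called lower in both experiments, and the remaining members were called in at most 1 of them.

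**Figure D1:**
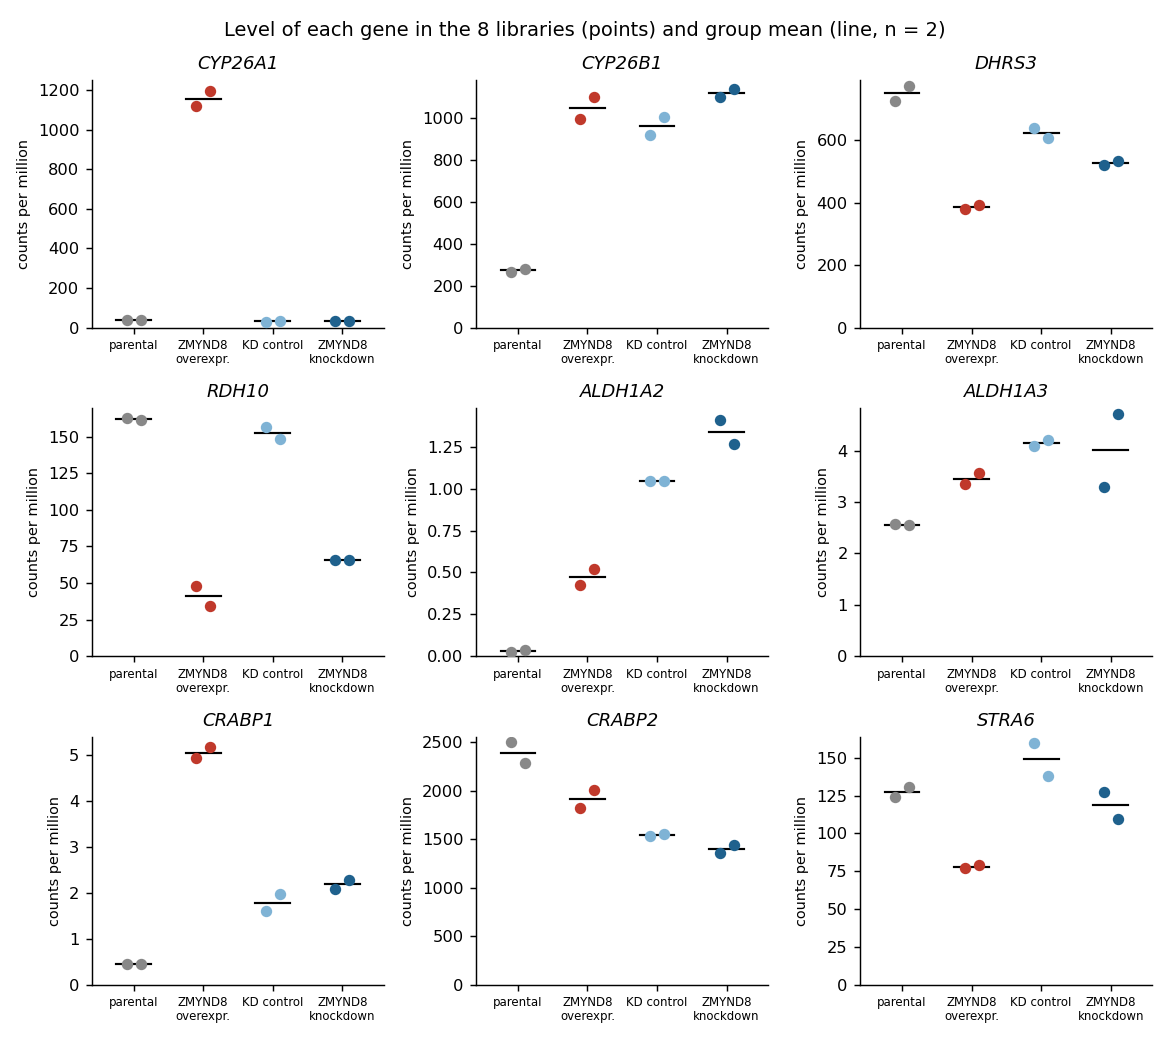
CPM (vertical axis, linear from 0, 1 panel per gene) in each of the 8 libraries, with points for libraries and a line for the group mean (n = 2). The overexpression libraries of CYP26A1 sit at 1120 and 1194 against 30.2 to 39.5 in the other 6, while RDH10 is at 34.0 to 65.8 in the 4 libraries with altered ZMYND8 and at 149 to 163 in the 4 control libraries.

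**Figure D2:**
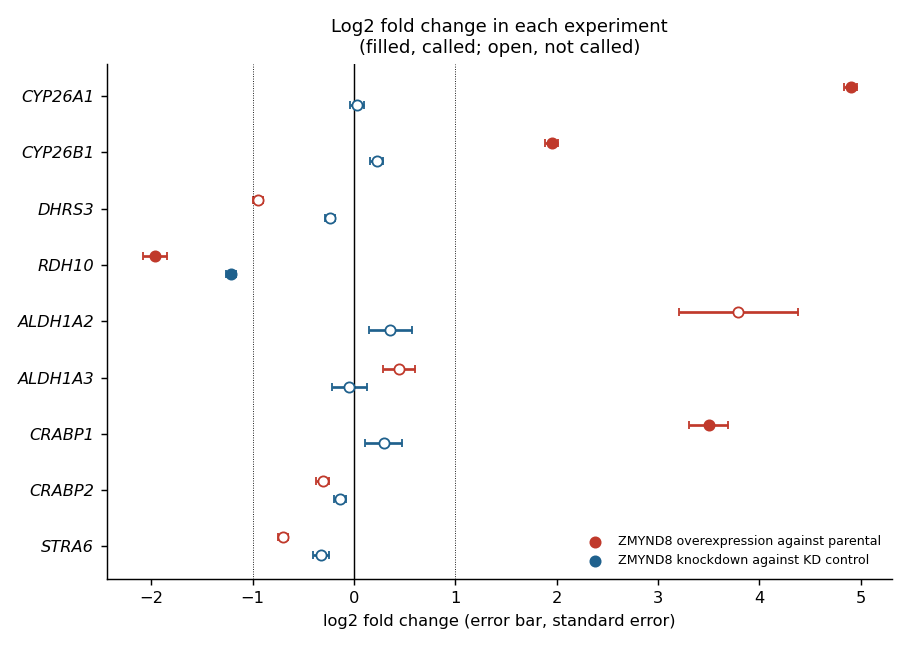
Log2 fold change (horizontal axis) of each of the 9 genes with overexpression (red) and with knockdown (blue), with bars for the standard error, filled points for genes called and dotted lines at the threshold of 1 in either direction. CYP26A1 lies at 4.90 with overexpression and at 0.03 with knockdown, and RDH10 lies below -1 in both. The value of ALDH1A2 with overexpression rests on 3 parental counts.

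CYP26A1, the hydroxylase most closely tied to removal of retinoic acid, showed the largest fold change of the 9 genes with overexpression. Its level was 38.4 and 39.5 CPM in the parental libraries and 1120 and 1194 in those overexpressing ZMYND8. The groups did not overlap, and the lower overexpression library stood far above every other library of the series. The increase was 29.9-fold (log2 4.90 ± 0.0614, edgeR adjusted p = 1.72e-11). With knockdown the level was 31.8 and 32.9 against 30.2 and 33.3 in KD control cells. Here the 2 knockdown values lay within the range of the controls, and the difference was log2 0.03 with a 95% interval of -0.12 to 0.18 (adjusted p = 0.803). In order of level the groups ran overexpression, parental, knockdown and KD control. The difference between knockdown and KD control did not pass (adjusted p = 0.819 in 1 edgeR fit of all 8 libraries).

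CYP26A1 (ENSG00000095596) lies on chromosome 10, at 93073475 to 93077885 of hg38 on the plus strand. It shares 25.3% of its exon bases with ENSG00000285846 of the same strand, which had 0 counts in all 8 libraries. How reads in the shared part were assigned was not given in the sources used here. The counts of CYP26A1, and its level per kb of exon below, may therefore be too low. Retinoic acid response elements are direct repeats of a pair of half-sites, at which RAR and RXR bind as a dimer. Windows from 2500 bases before to 500 after the start of a gene's canonical transcript in GENCODE 44, which can lie inside the gene's outer bounds, were searched on both strands for repeats of the half-sites AGTTCA or AGGTCA or GGTTCA or GGGTCA, in any pairing, at spacings of 1, 2 and 5 bases (DR1, DR2 and DR5). CYP26A1 held 2 DR5 repeats, shown here since its transcript moved most, with the half-sites in capitals. The first is on the minus strand at chr10:93073803-93073819, 90 to 74 bases before the canonical start at 93073893 and inside the outer bounds of the gene, and the second on the plus strand at chr10:93071917-93071933, 1976 to 1960 bases before it.
CYP26A1 DR5, near the start: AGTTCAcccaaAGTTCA
CYP26A1 DR5, farther out: GGGTCAcaggcGGGTCA
A DR5 of these letters was present in 0.684% of the 3000-base windows of 20033 protein-coding genes, and in 0.0883% of 35116 RefSeq windows of 300 bases on hg38. A match is a description of letters, and binding was not measured in these libraries.

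Among the other members, CRABP2 held 1 DR1 on the minus strand at chr1:156706028-156706040, 457 to 445 bases before its canonical start at 156705583, and ALDH1A2 held 1 DR2 on the plus strand at chr15:58067884-58067897, 2186 to 2173 bases before its canonical start at 58065711, a position inside the gene, whose outer bounds are 57953424 and 58497866. They are printed to set their half-sites beside those of CYP26A1.
CRABP2 DR1: AGTTCAgGGTTCA
ALDH1A2 DR2: AGGTCAggAGTTCA
A DR1 was present in 1.52% and a DR2 in 10.8% of the windows of protein-coding genes. The windows of CYP26B1, CRABP1, DHRS3, ALDH1A3 and STRA6 held none of the repeats searched, and RDH10 is not reported here.

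CYP26B1, the second hydroxylase, rose as well, but from a higher parental level and by less. It was at 267 and 278 CPM in parental cells and at 995 and 1098 with overexpression, groups that did not overlap. The increase was 3.86-fold (log2 1.95 ± 0.0599, edgeR adjusted p = 1.12e-09). In the knockdown experiment the level was already high, at 918 and 1003 in KD control cells and 1099 and 1138 with knockdown. The knockdown libraries were both above the controls by log2 0.22 ± 0.0600 (adjusted p = 0.0215), a change of 16.6% that missed the threshold on fold and the adjusted p when the first KD control library was left out (log2 0.15, adjusted p = 0.181). In order of level the groups ran knockdown, overexpression, KD control and parental. The differences of overexpression from its neighbours did not pass in the fit of all 8 libraries (adjusted p = 0.175 against knockdown and 0.0901 against KD control), while the parental libraries lay below all others.

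**Figure D3:**
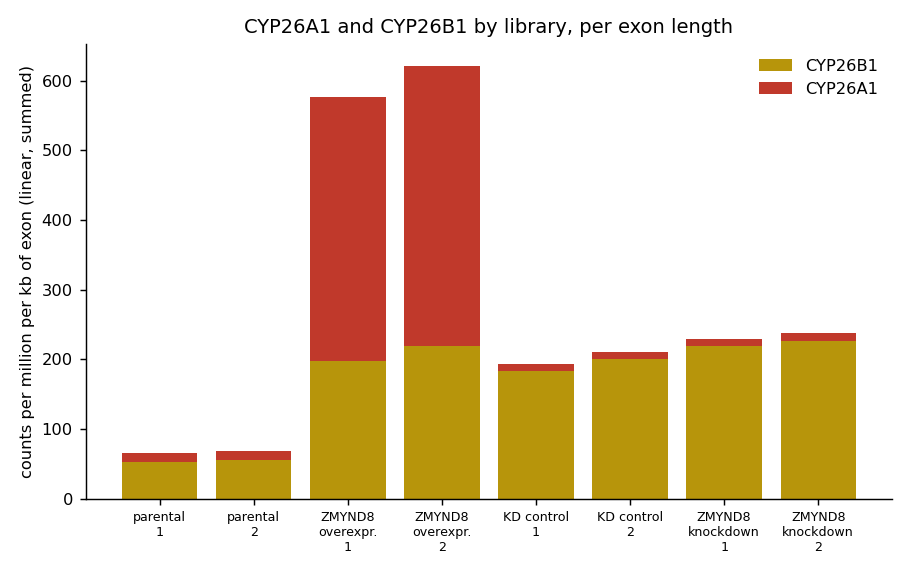
CPM per kb of exon (vertical axis, linear from 0) of CYP26B1 (ochre) and CYP26A1 (red), stacked for each of the 8 libraries. CYP26A1 makes up 64.8% and 65.6% of the bar in the overexpression libraries and 4.66% to 19.6% in the other 6.

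On the scale of CPM per kb of exon, which allows genes to be compared, CYP26A1 and CYP26B1 together reached 67.5 ± 1.94 in parental cells, 599 ± 32.2 with overexpression, 202 ± 12.7 in KD control cells and 234 ± 5.88 with knockdown (mean ± SD, n = 2 each). CYP26A1 was the smaller part of that sum in parental cells, at 19.4% and 19.6%. It was the larger part with overexpression, at 64.8% and 65.6%, and a small part in KD control cells, at 5.27% and 5.32%, and with knockdown, at 4.66% and 4.67%. The 2 hydroxylases therefore exchanged rank between parental and overexpressing cells, and the libraries of the groups did not overlap in this share.

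RDH10 and DHRS3 work in opposite directions on retinal, and both fell upon overexpression. RDH10, the retinol dehydrogenase that supplies retinal, was at 163 and 162 CPM in parental cells and at 48.3 and 34.0 with overexpression. The groups were far apart, although the 2 overexpression libraries differed from each other more than those of any other group did. The decrease was 3.91-fold (log2 -1.97 ± 0.121, edgeR adjusted p = 1.94e-07). With knockdown RDH10 was at 65.5 and 65.8 against 157 and 149 in KD control cells, again without overlap. The decrease was 2.32-fold (log2 -1.22 ± 0.0502, adjusted p = 3.62e-07), and over the alternatives it ranged from -1.25 to -1.18. The difference between parental and KD control levels did not pass (adjusted p = 0.161), while knockdown lay above overexpression in the fit of all 8 libraries by log2 0.67 (adjusted p = 4.97e-05). ZMYND8 transcript thus stood above its control in one experiment and below it in the other, and RDH10 was lower than its control in both.

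DHRS3, the retinal reductase, was at 726 and 773 CPM in parental cells and at 380 and 391 with overexpression. The libraries did not overlap, and the decrease of 1.93-fold (log2 -0.95 ± 0.0522, edgeR adjusted p = 7.99e-08) fell just short of the threshold on fold. Without the first parental library it was -1.01 and DHRS3 was called. With knockdown DHRS3 was at 519 and 532 against 638 and 605 in KD control cells. The log2 change was -0.24 ± 0.0522 (adjusted p = 0.00739), which did not pass without the first KD control library (adjusted p = 0.0573). The order of the levels was parental, KD control, knockdown and overexpression, and each neighbour differed in the fit of all 8 libraries. Per kb of exon, RDH10 made up 12.1% and 12.9% of the 2 genes' sum in parental cells, 7.72% and 5.42% with overexpression, 13.9% in both KD control libraries, and 7.54% and 7.68% with knockdown.

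Both retinal dehydrogenases were at low levels. ALDH1A2, which makes most of the retinoic acid of the embryonic trunk, had 1 and 2 counts in the parental libraries, 23 and 23 with overexpression, 55 and 58 in KD control cells and 74 and 66 with knockdown. Parental cells were close to 0 and all other libraries were above them. The ratio of overexpression to parental, scaled for library size, was 14.8 with a 95% counting interval of 4.75 to 74.2, and edgeR gave an adjusted p of 2.53e-04, but the mean of 12.2 normalized counts was below the limit for a call. With knockdown the difference from KD control was log2 0.36 with a 95% interval of -0.11 to 0.82 (adjusted p = 0.253). In order of level the groups ran knockdown, KD control, overexpression and parental, and the difference of the first pair did not pass.

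ALDH1A3 was at 2.56 and 2.55 CPM in parental cells and at 3.34 and 3.57 with overexpression, without overlap. The difference of log2 0.44 ± 0.156 (edgeR adjusted p = 0.0313) did not pass with DESeq2 (adjusted p = 0.212) or when any of the 4 libraries was left out. With knockdown it was at 3.30 and 4.72 against 4.09 and 4.21 in KD control cells, so the knockdown libraries lay on both sides of the controls (log2 -0.047, 95% interval -0.43 to 0.34, adjusted p = 0.880). Of its exon bases, 32.2% are shared with ALDH1A3-AS1 on the opposite strand, which had 87 to 141 counts per library, and the strand setting of the counting was not given in the sources used here, so the reads of these 2 genes may not be fully separated. No difference among the 3 groups other than parental passed in the fit of all 8 libraries (adjusted p of 0.181 or more).

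The binding proteins went in opposite directions with overexpression. CRABP1 was at 0.447 and 0.445 CPM in parental cells (19 and 23 counts) and at 4.92 and 5.16 with overexpression (265 and 227 counts). The groups did not overlap, and the increase was 11.3-fold (log2 3.50 ± 0.197, edgeR adjusted p = 9.53e-08). With knockdown it was at 2.08 and 2.28 against 1.60 and 1.97 in KD control cells, a difference of log2 0.29 with a 95% interval of -0.12 to 0.70 (adjusted p = 0.297). In order of level the groups ran overexpression, knockdown, KD control and parental, and the difference between knockdown and KD control did not pass, although their libraries did not overlap. An unnamed opposite-strand locus, ENSG00000279694, shares 45.9% of the exon bases of CRABP1. It had 3 and 5 counts in parental cells, 26 and 20 with overexpression, and 0 or 1 in each library of the knockdown experiment. It was thus highest in the same libraries as CRABP1. As the strand setting was not given, the reads of these 2 loci may not be fully separated.

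CRABP2 was by far the most abundant member per kb of exon, at 1294 to 2207 CPM per kb as group means, and the next was CYP26A1 with overexpression at 390. It was at 2498 and 2279 CPM in parental cells and at 1821 and 2010 with overexpression. The libraries did not overlap, and the level fell by 19.3% (log2 -0.31 ± 0.0624, edgeR adjusted p = 0.00149). With knockdown it was at 1360 and 1440 against 1534 and 1556, a difference of log2 -0.14 with a 95% interval of -0.26 to -0.02 that did not pass over all genes (adjusted p = 0.0918). In order of level the groups ran parental, overexpression, KD control and knockdown, and the difference of the last pair, whose libraries did not overlap, did not pass in the fit of all 8 libraries (adjusted p = 0.132). CRABP1 made up at most 0.304% of the 2 binding proteins' sum per kb in any library.

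STRA6, the membrane receptor for retinol-binding protein, was at 124 and 131 CPM in parental cells and at 76.8 and 79.3 with overexpression. The groups did not overlap, and the decrease was 1.62-fold (log2 -0.70 ± 0.0515, edgeR adjusted p = 8.04e-07), short of a call. With knockdown it was at 128 and 110 against 160 and 138 in KD control cells, also without overlap. The log2 change of -0.33 ± 0.0823 (adjusted p = 0.0159) did not pass without the first KD control library (adjusted p = 0.114) or without the filter on low counts (adjusted p = 0.116). The difference between knockdown and parental levels, neighbours in the order, did not pass in the fit of all 8 libraries (adjusted p = 0.241).

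The 2 control groups differed from each other in several members, although both received ATRA. This comparison uses the same parental libraries as the overexpression comparison, and experiment, vector, Dox and the share of mitochondrial counts cannot be told apart in it. CYP26B1, CRABP1 and ALDH1A2 were called higher in KD control than in parental cells, 3 of 9, where 21.6% of all genes tested were called, 10.8% in each direction. By adjusted p alone 8 of 9 passed, 5 higher and 3 lower, where 69.9% of all genes passed, 33.6% higher and 36.2% lower. CYP26B1 differed by log2 1.83 ± 0.0586 (edgeR adjusted p = 8.03e-10), CRABP1 by 2.00 ± 0.245 (adjusted p = 2.73e-05), and the counts of ALDH1A2 by a ratio of 32.9 with a counting interval of 11.0 to 162. The mean of ALDH1A2 exceeded the limit in this comparison, at 27.3 normalized counts, through the KD control libraries alone. The log2 difference was -0.29 ± 0.0640 for CYP26A1, -0.62 ± 0.0571 for CRABP2 and -0.26 ± 0.0536 for DHRS3, each lower in KD control cells. Thus CYP26B1 and CRABP1, both called higher with overexpression, also differed between the control groups, by log2 1.83 and 2.00, whereas CYP26A1 differed there by -0.29.

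The effects of overexpression and of knockdown were then compared directly, as the difference of the 2 log2 fold changes in 1 edgeR fit. It was called for 4 of 9 members, CYP26A1, ALDH1A2, CRABP1 and CYP26B1, each with the larger value for overexpression, where 18.8% of all genes tested were called, 11.1% with a positive and 7.66% with a negative difference. By adjusted p alone 7 of 9 passed, 4 positive and 3 negative, where 49.0% of all genes passed, 24.6% positive and 24.4% negative. ALDH1A2 exceeded the limit on the mean here, at 36.6 normalized counts, only through the libraries of the knockdown experiment, and its overexpression effect rests on 3 parental counts, so its call is not counted as support. RDH10 was lower with overexpression than with knockdown, each against its own control, with a difference of log2 -0.76 ± 0.145 (edgeR adjusted p = 5.06e-04). Without the first overexpression library this difference was -1.04, and without the second it was -0.53. CRABP2 and ALDH1A3 did not pass, with differences of -0.18 (95% interval -0.37 to 0.01, adjusted p = 0.119) and 0.48 (-0.05 to 1.01, adjusted p = 0.123).

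Other genes of retinoid metabolism were taken from a list of 40. With overexpression 24 of them were tested, 3 were called higher and 0 lower, where 11.8% and 6.84% of all genes were, and by adjusted p alone 14 were higher and 5 lower, where 31.7% and 29.1% of all genes were. Their median log2 fold change was 0.80, against 0.03 over all genes tested. Several of the 24, such as LRAT and CYP2S1, were near 0 in parental cells and entered the test only through the overexpression libraries. This median and the number of genes higher are therefore not counted as support. LRAT, which esterifies retinol for storage, had 4 and 3 counts in parental cells and 145 and 106 with overexpression (log2 5.06 ± 0.333, edgeR adjusted p = 3.28e-07). The other calls were CYP2S1, a cytochrome P450 with 4 and 9 parental counts (log2 2.35 ± 0.432), and the carotenoid-cleaving enzyme BCO2 (1.60 ± 0.160). CYP2S1 barely exceeded the limit of 20 on the mean, at 20.1 normalized counts. LRAT and CYP2S1 exceeded it through the overexpression libraries alone, so their calls are not counted as support. With knockdown 16 of the 40 were tested and none was called, where 1.96% of all genes were. RDH11, a retinal reductase, was the 1 gene that passed by adjusted p alone (log2 -0.26, edgeR adjusted p = 0.00427), where 24.3% of all genes passed. An unadjusted p below 0.05 was seen for 4, with no share over all genes beside it, and is not counted as support.

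**Figure D4:**
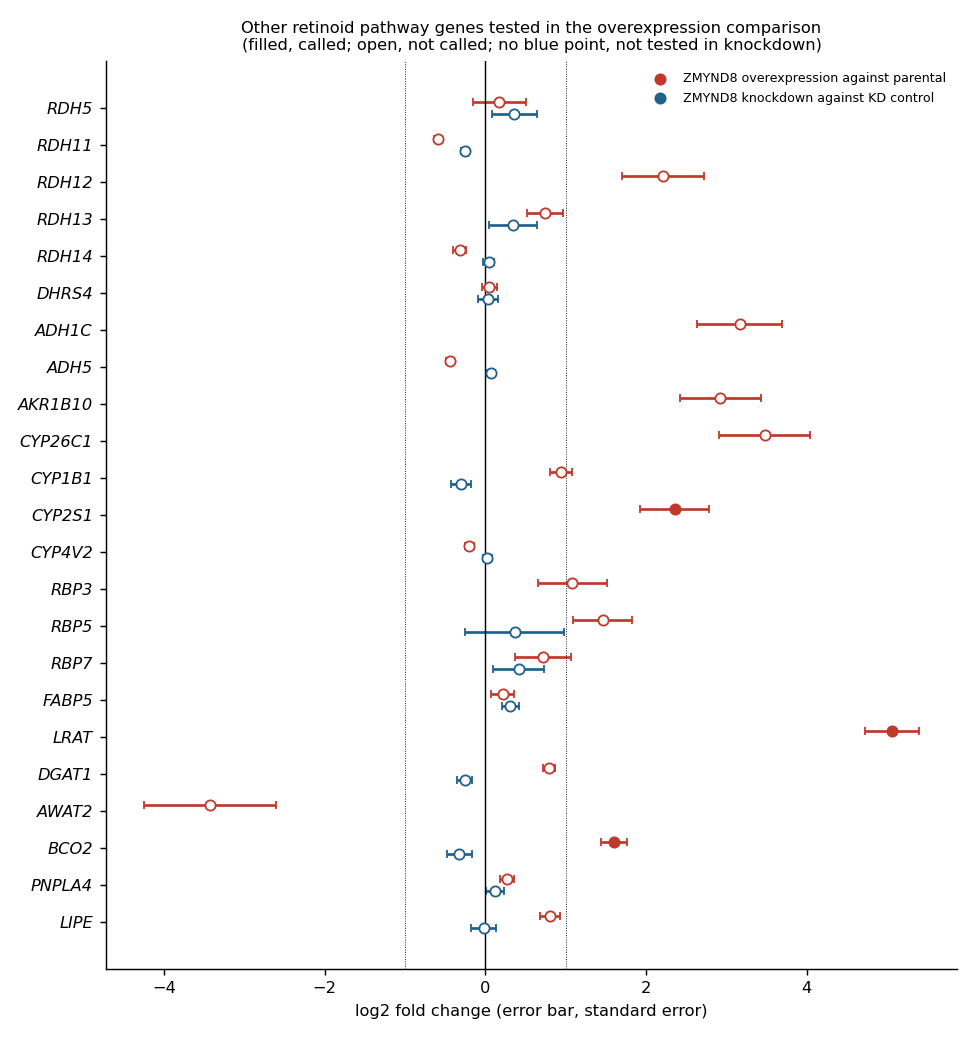
Log2 fold change (horizontal axis) of 23 of the 24 other retinoid genes tested with overexpression, in red, and with knockdown, in blue, with bars for the standard error and filled points for genes called. LRAT at 5.06 and CYP2S1 at 2.35 lead the genes called with overexpression, no blue point is filled, and LPL, with 0 parental counts, is left out because its fold is a lower bound only.

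The third member of the hydroxylase family, CYP26C1, had 4 and 1 counts in parental cells and 29 and 31 with overexpression, which passed by adjusted p alone (edgeR adjusted p = 3.46e-04) at a mean of 16.3 normalized counts. It was chosen for mention after its values were seen. Among the receptors, RARA was higher by log2 0.61 and RARB by 0.21 with overexpression, the log2 changes of RARG and RXRA were -0.41 and -0.17, and RXRG, with 0 parental counts in both libraries and 24 and 16 with overexpression, was at least 6.29-fold higher, computed against a floor of 3 counts over the group. None of the 5 receptors tested was called, where 18.6% of all genes were, and all 5 passed by edgeR adjusted p alone, where 60.8% of all genes did. RXRG missed the limit on the mean at 9.74 normalized counts. Between the control groups 2 of 4 receptors tested were called lower in KD control cells and 0 higher, where 10.8% of all genes were in each direction. In parental, overexpressing and KD control cells, RARA was at 54.2, 82.4 and 87.7 CPM and RARB at 130, 149 and 155. RARG was at 164, 123 and 71.4 and RXRA at 52.9, 46.9 and 13.8 in the same order.

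Genes known to respond to retinoic acid were split. Of a list of 22, 19 were tested with overexpression, 4 were called higher and 7 lower, against the 11.8% and 6.84% of all genes. The receptor tyrosine kinase gene RET rose by log2 4.12 ± 0.0800 and NRIP1, a corepressor gene, by 1.82 ± 0.0845, while the transglutaminase gene TGM2 fell by 2.61 ± 0.0536 and the transcription factor gene SOX9 fell by 1.16 ± 0.0866. HOXA3 and HOXA5 were the other 2 called higher. HOXA3 had 0 and 1 parental counts and 138 and 73 with overexpression. HOXA5, with 0 parental counts, was at least 37.0-fold higher, computed against a floor of 3 counts over the group. Both exceeded the limit on the mean through the overexpression libraries alone, so their calls are not counted as support. HOXB2, PLAAT4, RARRES1, TNFAIP2 and CCN1 were the other genes called lower. Between the control groups 17 of the list were tested. In KD control cells 6 were called higher and 2 lower, where 10.8% of all genes were in each direction. The log2 difference, KD control against parental, was 3.13 for RET, 1.86 for NRIP1, -1.11 for TGM2 and 0.89 for SOX9. RET, NRIP1 and TGM2 thus differed there in the same direction as with overexpression, and SOX9, HOXB2 and CCN1 in the opposite direction. The cause was not tested. With knockdown 18 were tested and none was called by edgeR, where 1.96% of all genes were. By adjusted p alone 10 passed, where 24.3% of all genes did. An unadjusted p below 0.05 was seen for 13, with no share over all genes beside it, and is not counted as support.

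For 8 members with enough counts, the genes with the most similar course over the 8 libraries were sought among 13543 genes, by the root mean square difference of centred log2 levels. This is a description and carries no test. The nearest to CYP26A1 was the calcium channel gene CACNA1G at 0.36 on a range of 5.28. CYP26B1 ran closest to the BMP receptor gene BMPR1B at 0.08 on a range of 2.09, CRABP1 to ZBTB46 at 0.08 on a range of 2.58, and RDH10 to the prion protein gene PRNP at 0.17 on a range of 2.25. For DHRS3 the nearest was CTBS at 0.06, for CRABP2 it was HLTF at 0.05, for STRA6 PLEKHB1 at 0.05, and for ALDH1A3 the noncoding TCF12-DT at 0.07, all on narrower ranges of 0.77 to 1.05.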

How the data were processed

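The authors deposited counts, raw whole numbers for each gene. By the methods, reads were trimmed with Trim_Galore, filtered at a Phred score of 25, aligned to GRCh38 (hg38) with Hisat2 and assigned with featureCounts on GENCODE release 28. The strand setting was not given in the sources used here. Of 60662 lines, 3 that belong to 1 split gene were left out. Symbols came from GENCODE 44, which holds 60462 of the 60659 identifiers.

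The count model was fitted with edgeR 4.0.16 (R 4.3.3, limma 3.58.1), using TMM normalization, a filter by expression and the quasi-likelihood F test, with Benjamini-Hochberg adjustment over all genes tested. Each comparison used its own 4 libraries, and the comparison of both effects used all 8. Standard errors were the absolute log2 fold change divided by the square root of F. DESeq2 1.42.0, other normalizations, filters, blocks and left-out libraries were alternatives. The scripts were tested on simulated data. The 9 genes, the other gene lists and the markers were chosen with earlier results of these data known. Named genes were the 9 members, genes of the fixed lists that were called, and the nearest genes in course. Receptors, markers and overlapping loci were named beside them. RDH11 and LPL were not called and were named outside this rule, and CYP26C1 is marked as chosen later. The 3000-base windows were also chosen after the files were seen. Intervals on counts cover counting error only. At most 2.85% of any member's exonic 31-base stretches recur on alternate contigs. The promoter sequences came from hg38 and RefSeq, and RDH10 was not reported there. The lists leave out 2 genes that are not reported here.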

Additional observations from a re-analysis of the deposited data

Results flagged for a closer look

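The effect of overexpression and that of knockdown differed by an edgeR quasi-likelihood test of the difference itself, adjusted over 22619 genes, for 7 of the 9 genes, where 49.0% of all genes tested passed. The difference, overexpression minus knockdown on the log2 scale, was 4.86 for CYP26A1, 3.44 for ALDH1A2, 3.20 for CRABP1 and 1.72 for CYP26B1. It was -0.76 for RDH10, -0.72 for DHRS3 and -0.38 for STRA6, which had fallen in both experiments by adjusted p. The experiments also differ in Dox, vector and the share of mitochondrial counts, and these cannot be told apart from the difference. The value for ALDH1A2 rests on 3 counts over both parental libraries.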

How the results depend on the processing

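The number of members called was 4 with overexpression, 1 with knockdown, 3 between the control groups and 4 for the difference of effects. With no threshold on fold change it was 8, 4, 8 and 7. The genes called over the whole table were then 11332 of 20835 tested, 4707 of 19789, 12719 of 20385 and 10096 of 22619. With a mean normalized count above 100 in place of 20, the members called between the control groups fell to 1. The number elsewhere was unchanged apart from the difference of effects at 3. The genes called were 2331, 174, 2611 and 2723 of the same numbers tested. With DESeq2 the genes called were 3608, 282, 4109 and 3833. Leaving out 1 library left a group with a single library, so no number of members called is given for those fits.

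A sign changed in 2 results. The log2 fold change of CYP26A1 with knockdown was -0.047 without the first KD control library (range over left-out libraries -0.047 to 0.10), and that of ALDH1A3 was 0.18 without the first knockdown library (range -0.32 to 0.18), and neither passed the threshold. The difference of effects passed for CRABP2 with DESeq2 (-0.24, adjusted p = 0.0106), with RLE normalization (-0.24, adjusted p = 0.0363), with no filter on low counts (-0.26, adjusted p = 0.00717) and without the second overexpression library (-0.25, adjusted p = 0.0367), and for ALDH1A3 without the second knockdown library (0.76, adjusted p = 0.0199). STRA6 between the control groups did not pass with the length trend removed (adjusted p = 0.0566) or without the first KD control library (adjusted p = 0.0693). The cause was not tested.

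Replicate numbers in the labels are shared by the groups, but nothing says that they mark a shared culture or day, and with 2 pairs each the deviations of same-numbered libraries correlated at 0.0968 across genes in the overexpression experiment and 0.162 in the knockdown experiment. With the replicate block the genes called were 3886, 393, 4415 and 4255, and the members called were 4, 1, 3 and 4.

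With 2 libraries per group, the 95% intervals given for CYP26A1, CRABP1, ALDH1A2 and ALDH1A3 with knockdown are the precision that these counts allow. Each spans changes in both directions, so a change within it remains possible. The intervals are not limits of detection.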
